A study of Drosophila melanogaster with 6 samples.

Results

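The genes described here are those of autophagy, of the Vps sorting complexes and of lysosomal enzymes in fly astrocytes. They were taken by symbol from the count table: symbols that begin with Atg or Vps and a digit, or with LMan, and the named genes ref(2)P, Lamp1, cathD, Cp1, car and lt. This gave 55 of 16666 symbols, and the listed symbol dor had no row under that name and is not analysed here. The study compared astrocytes of Drosophila melanogaster brains at the third larval instar (L3, 2 libraries), before neuronal remodelling, with astrocytes of adult brains (4 libraries), after it; no adult age is given in the labels. All 6 libraries came from flies with UAS-mCD8::GFP, Alrm-Gal4 and UAS-RedStinger, so the sorted cells were those in which the Alrm driver turned on the red reporter. Each library was a pool of 1000 sorted cells, and the enzyme step lasted 15 min for larval and 30 min for adult brains, so digestion time and stage cannot be told apart. Nothing in the labels says whether libraries of a stage came from separate dissections, so p-values measure the spread between these libraries, which may be technical.

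Autophagy encloses cytoplasm in a membrane and delivers it to the lysosome. The Atg1 kinase complex starts the process, a class III phosphatidylinositol 3-kinase and Atg9 vesicles feed the growing membrane, and the Atg8 and Atg12 conjugation enzymes attach Atg8 to lipid. The ESCRT, retromer and GARP complexes sort membrane proteins between endosomes, Golgi and lysosome, the HOPS complex tethers vesicles to the lysosome, and cathepsins and glycosidases degrade the contents. Glia that engulf debris during remodelling rely on the same lysosomes.

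Library totals were 2641671 and 1923097 counts in L3 and 745129 to 1287871 in adult. Astrocyte markers were present, and most differed between the stages. The gene of the driver, alrm, was at 861 and 1346 CPM (the count of a gene scaled to the library total) in L3 and 994 to 1628 in adult and did not pass. Of the other astrocyte markers, Eaat1, Gat, Gs2, e, Dat and repo rose and wun2 fell. The summed level of all 8 was 3606 and 5510 CPM in L3, against 9780 to 14739 in adult. Gs2 had counts under 5% apart from those of Evi5, e from Nelf-A and repo from CG7156. The rises of these 3 rows cannot be assigned to the markers alone. Gat, a GABA transporter, was at 40.9 CPM in L3 library 1 and 450 in L3 library 2. The genes of the list together held 0.217% and 0.263% of all counts in L3 and 0.251% to 0.284% in adult. In pooled cells, fewer cells that express a gene and less RNA per cell cannot be told apart. The libraries also held RNA of other cells' markers. The summed level of 8 hemocyte markers was 82.9 and 75.4 CPM in L3, against 937 to 1620 in adult, where Hml alone was at 847 to 1527 CPM. Of the other hemocyte markers, eater was at 0 in all 4 adult libraries, NimC1 and He were at 0 in adult libraries 2 and 3 and at 6.21 and 4.66 CPM in adult library 4, and srp and Sr-CI were found in adult library 3 alone, at 23.0 and 8.77 CPM. Pxn was at 4.16 and 14.0 CPM in L3 and at 32.6, 61.7, 5.48 and 8.54 in adult, and crq at 35.2 and 29.1 against 28.2 to 62.9. The summed level of 9 neuron markers was 84.0 and 154 CPM in L3, against 202 to 405 in adult. The mean of nSyb rose from 7.71 ± 8.22 to 53.5 ± 17.4 CPM (SD, adjusted p = 0.00384, edgeR). Gad1, with the counts of wit and Faa, rose from 1.58 ± 1.51 to 21.0 ± 23.1 CPM (adjusted p = 0.0275, edgeR). Of the tested neuron markers, 0 fell at an adjusted p under 0.05. For 10 markers of other glia it was 530 and 678 against 959 to 1172 CPM, and for 5 of fat body 21.2 and 40.04 against 17.1 to 55.02. The sums of other glia and of fat body joined markers that went opposite ways at an adjusted p under 0.05 (edgeR). Of the other glia, Eaat2, zyd and hoe1 rose, and Indy fell from a mean of 48.6 to 12.5 CPM. Of fat body, Lsp1beta fell from 25.5 to 0.548 CPM and Yp2 rose from 3.85 to 37.3. Counts of Indy were under 5% apart from those of Cat, hoe1 from CG2837, and Yp2 from CR45601 and CG15312. Changes in these rows cannot be assigned to the markers alone. The part of these cells in the results below was not tested.

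Few of these genes passed the test between stages. Of the 55 symbols, 44 had enough counts to be tested with edgeR's quasi-likelihood test. LManI among them had no L3 count and passed the filter on low counts through adult libraries alone. Of these 44, 2 rose in adult, Lamp1 and LManI, and 1 fell, Vps29, each at an adjusted p under 0.05. That is 6.82% of the tested members, against 22.7% of all 9082 genes tested, 9.67% higher and 13% lower. The difference between these shares was not tested. Other tools called fewer: edgeR's earlier method called Vps29 alone, with 11.9% of all genes called, DESeq2 called LManI and Vps29, with 15.9%, and limma-voom called Lamp1 and Vps29, with 20.1%. Numbers of genes at an unadjusted p under 0.05 are given below by step and list as a description. The share of all genes at that level is not given here. With the main test it is no lower than the 22.7% called. The median log2 fold change (adult minus L3) was 0.15 over the tested members and -0.14 over all tested genes. Of the tested members, 24 were above 0 and 20 below. Members too low to be tested are not in these numbers. Of 6 such members with counts, Atg5, Atg17, Vps16A and Vps51 were lower in every adult library than in both L3 libraries. The stages overlapped for lt and Vps45. The log2 fold change was between -1 and 1 for 31 members, or 70.5%, against 53.3% of all tested genes. The median edgeR log2 CPM was 4.90 over the members and 4.76 over all tested genes, and the median standard error of the log2 fold change (SE) was 0.62 against 0.66.

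These data bound most differences only loosely. The 95% interval of the log2 fold change reached 1.29 to either side in the median member. For 1 member, Vps28, it lay wholly between -1 and 1. A member that did not pass is therefore not shown to be equal in the 2 stages. L3 and adult libraries did not overlap for 11 tested members, 6 higher and 5 lower in adult, which is 25.0% against 37.7% of all tested genes (14.8% higher and 22.9% lower).

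**Figure D1:**
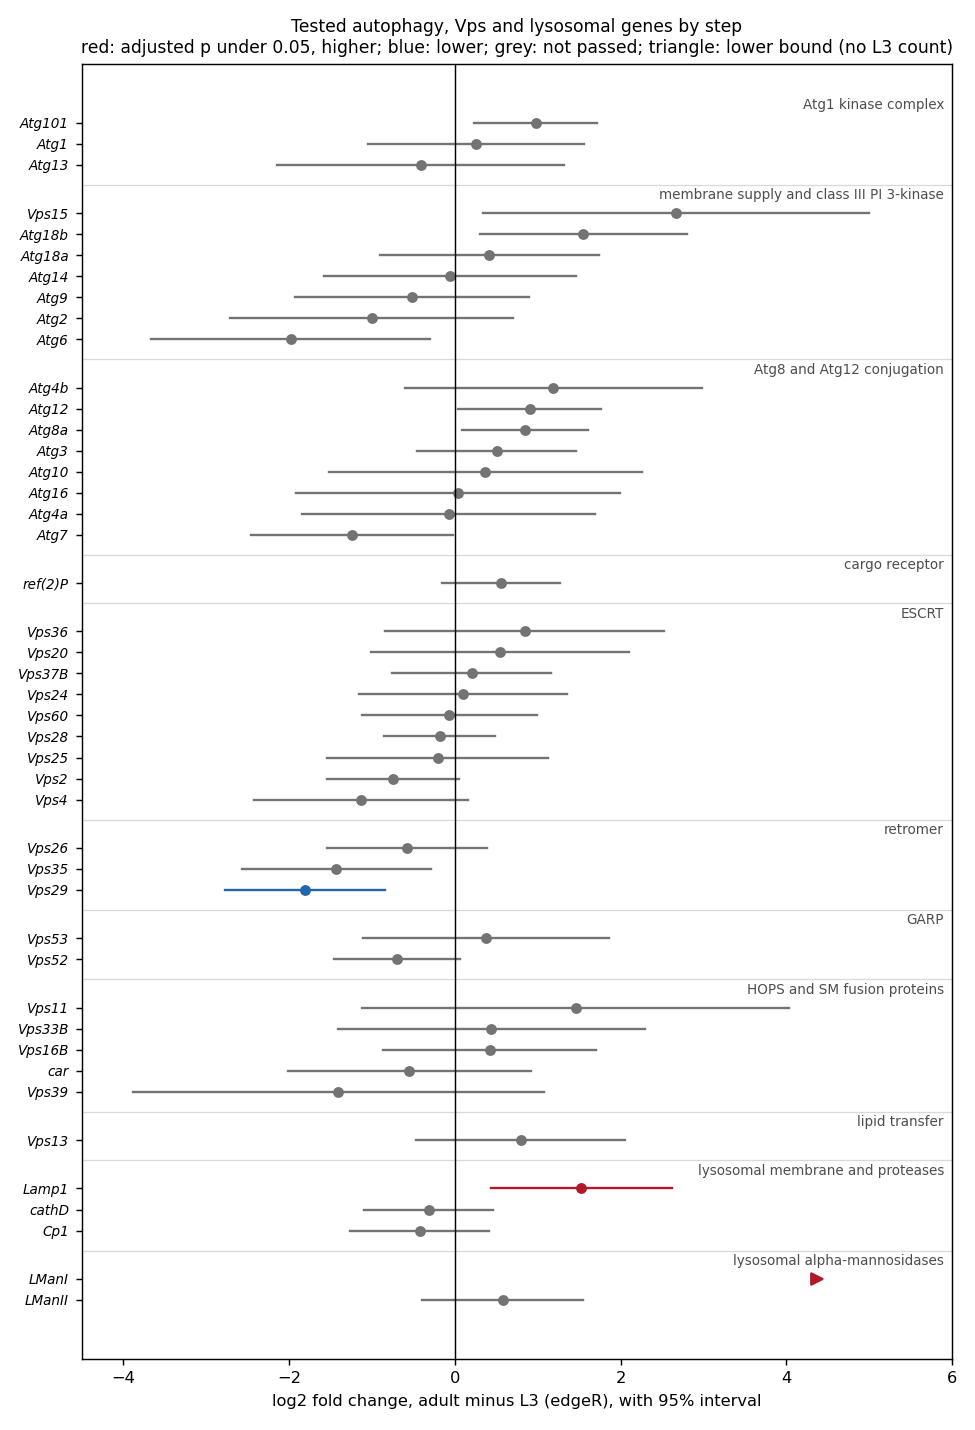
The log2 fold change of each tested gene, grouped by step, with its 95% interval from edgeR (horizontal axis, adult minus L3; n = 2 L3 and n = 4 adult libraries). Lamp1 and LManI in red and Vps29 in blue passed an adjusted p of 0.05. LManI, with no L3 count, is drawn without an interval. Its triangle lies at 20.7-fold, the adult mean over the L3 floor of 3 counts, which takes in no spread of the adult libraries.

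Many counts could not be assigned to 1 gene. Of 47 members with at least 30 counts, 24 had counts that differed by under 5% from those of another row at most 10 rows away in the table, and 13 had a row with the same counts in all 6 libraries. For 11 of the 24, the gene that shared the counts overlaps the member in the Ensembl annotation, on the opposite strand in each case. The sources used here do not state that counting used strand, so RNA of such a pair cannot be told apart. For the others of the 24, no sharing gene overlaps the member in that annotation, and the source of the shared counts was not tested. Sharing was not particular to these genes. It was found for 61 of 103 tested genes of the related lists described below. With 1 row per group of shared counts, 6030 rows of the whole table were tested, against 9082. Atg8a, the ubiquitin-like protein of the autophagosome membrane, had the counts of Tango5, itself an autophagy gene, the fly homologue of mammalian VMP1. ref(2)P had those of CG10337, Vps28 those of the RNA-binding protein gene lig, Atg3 those of the nuclear receptor gene ftz-f1, and Vps35 those of Swim. Atg1 had those of CG10969, Atg4a of ast, Atg4b of CG34404, Atg9 of CR45232, Atg10 of Dgk and Atg16 of CG7829. Vps16B had those of ca, Vps20 of CG4329, Vps36 of CG10710, Vps39 of CG18599 and Vps51 of CG15073. A further 12 members differed from a neighbouring row by 5% to 30%, cathD, Atg7, Atg6, Atg101 and car among them. Lamp1 and Cp1 had no such neighbour, but each matched 1 row over 10 rows away, CG31870 at 0.539% and CG17002 at 0.199% of summed counts.

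**Figure D2:**
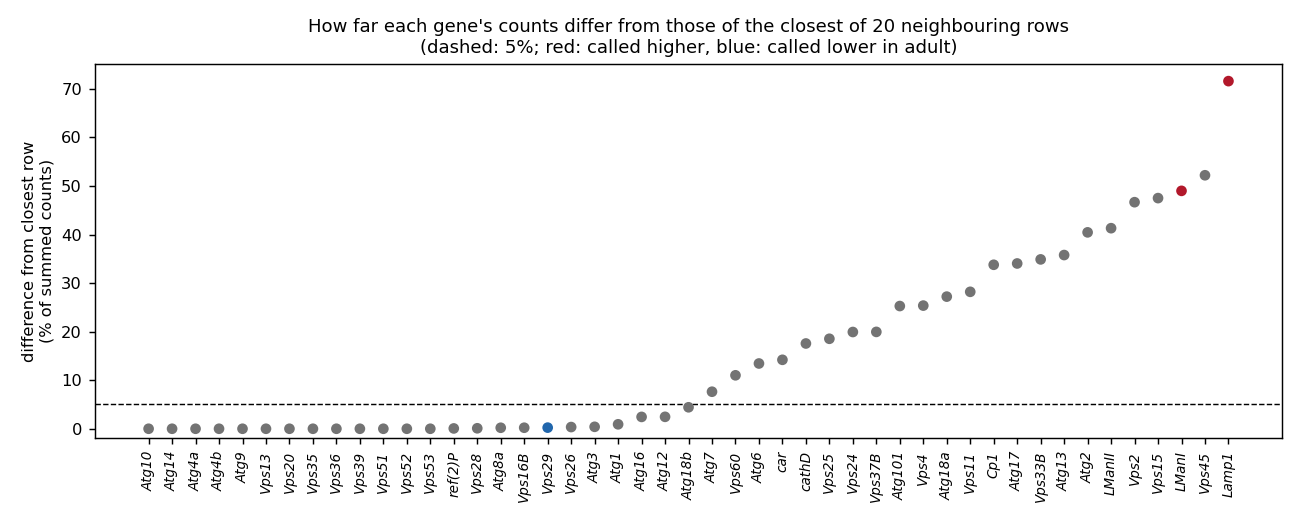
Difference between the counts of each gene and those of the most similar of the 20 neighbouring rows, in percent of summed counts (vertical axis), for 47 genes with at least 30 counts. The 24 genes under the dashed line at 5% share their counts with a neighbour, Vps29 (blue) among them, while LManI and Lamp1 (red) lie at 49.0% and 71.6%. Lamp1 also matched CG31870, a row outside these 20, at 0.539%.

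At the lysosome, Lamp1 and LManI rose, and the proteases cathD and Cp1 did not pass. Lamp1 encodes a glycoprotein of the lysosomal membrane. It was at 14.0 and 95.2 CPM in L3 and at 118, 153, 80.0 and 227 CPM in adult libraries 1 to 4. L3 library 1 was far below the others, L3 library 2 lay within the adult range, and the stages overlapped. The mean went from 54.6 ± 57.4 CPM (SD, n = 2) to 144 ± 62.5 (SD, n = 4), a log2 fold change of 1.53 (SE 0.53, adjusted p = 0.0405, edgeR). The counts differed by 0.539% from those of CG31870, so the rise cannot be assigned to Lamp1 alone. The call rested on L3 library 1, without which the log2 fold change was 0.77 (adjusted p = 0.46). The adjusted p was 0.0664 when adult library 2 was left out and 0.147 when adult library 4 was, and without L3 library 2 the log2 fold change was 3.20.

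LManI, a lysosomal alpha-mannosidase that trims mannose from glycoproteins, had no count in either L3 library and 11, 0, 20 and 30 counts in the adult libraries. Adult library 2 had none either, so the stages overlapped at 0. The adult level was 13.6 ± 11.1 CPM (SD, n = 4). Its mean was 20.7-fold above the floor of 3 counts over both L3 libraries, which is 0.657 CPM, with no allowance for the adult spread. The adjusted p was 0.0216 (edgeR), in a test that LManI entered through its adult counts alone. The call was lost without either L3 library (adjusted p = 0.162 and 0.112) and without adult library 4 (adjusted p = 0.0519). Its paralogue LManII was at 38.2 and 41.6 CPM in L3, against 42.7 to 88.6 in adult. All adult libraries were above both L3 libraries, but the difference did not pass (log2 fold change 0.58, SE 0.47, adjusted p = 0.416). LManIII, LManIV, LManV and LManVI had no count in any library, which allows a level of up to 0.657 CPM in L3 and 0.724 in adult.

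cathD and Cp1 had overlapping levels in the 2 stages. cathD, the aspartic protease cathepsin D, was at 252 and 170 CPM in L3 and at 143, 164, 274 and 137 in adult (log2 fold change -0.31, 95% interval -1.09 to 0.47, adjusted p = 0.606). Cp1, the cysteine protease cathepsin L, was at 123 and 144 CPM in L3 and at 48.4, 153, 126 and 92.4 in adult (log2 fold change -0.42, 95% interval -1.26 to 0.42, adjusted p = 0.502). The adult libraries lay on both sides of the L3 values for each protease. The sum of Lamp1, cathD and Cp1 was 389 and 408 CPM in L3, against 309 to 480 in adult.

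**Figure D3:**
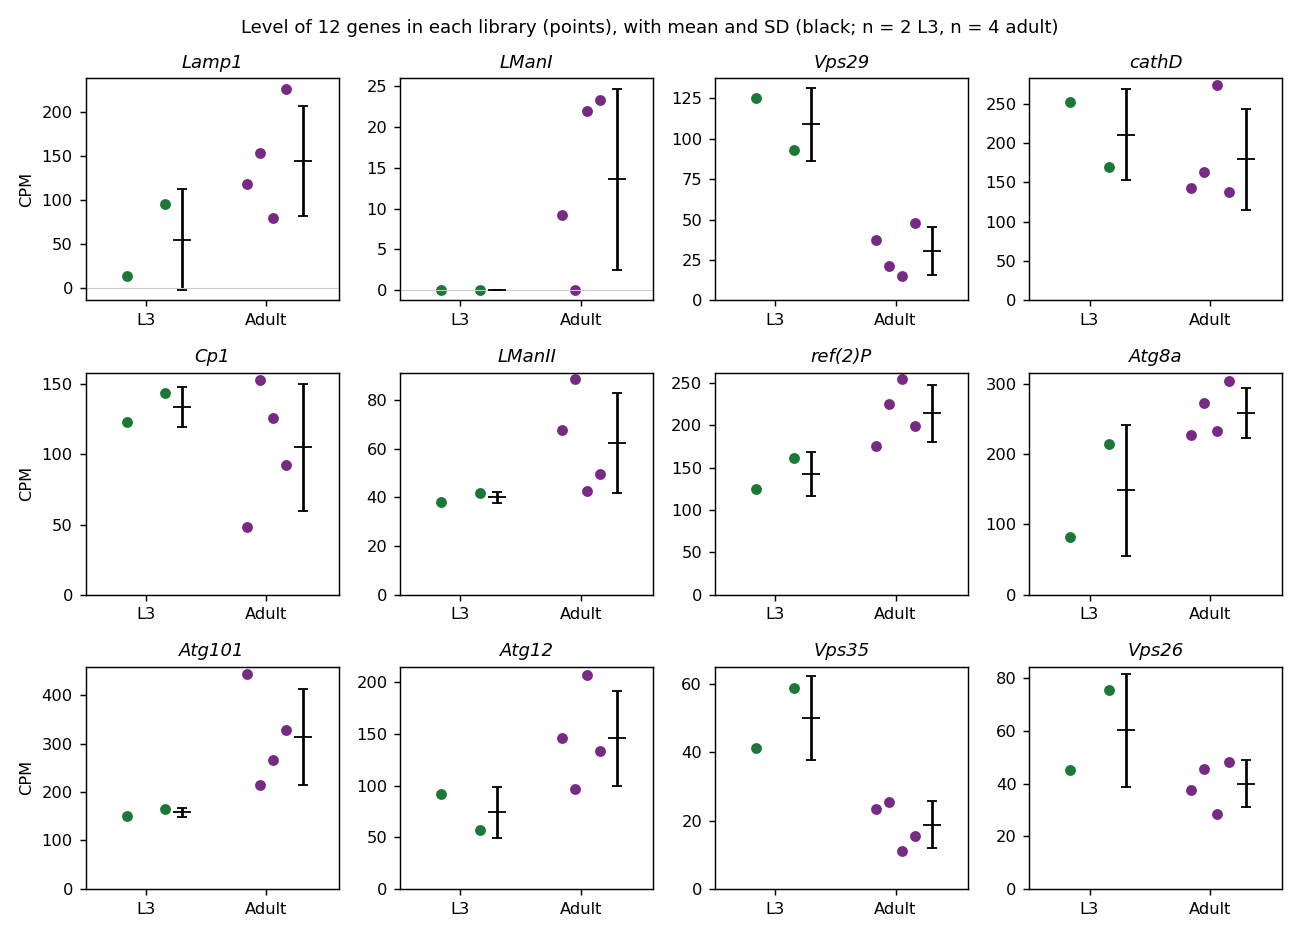
Level of 12 genes in CPM (vertical axes, linear) in each of 2 L3 libraries (green) and 4 adult libraries (purple), with the mean and SD in black. Vps29 is lower in every adult library, Lamp1 is set apart by 1 low L3 library at 14.0 CPM, and cathD and Cp1 overlap between stages.

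Vps29 was the only member called lower. Vps29 is a subunit of the retromer, the coat that retrieves membrane proteins from endosomes before they reach the lysosome. It was at 125 and 93.1 CPM in L3 and at 37.6, 21.5, 15.3 and 48.1 in adult, with all adult libraries below both L3 libraries. The mean went from 109 ± 22.5 CPM (SD, n = 2) to 30.6 ± 15.0 (SD, n = 4), a log2 fold change of -1.81 (SE 0.46, adjusted p = 0.00705, edgeR). DESeq2 (adjusted p = 0.0241), limma-voom (0.0198) and edgeR's earlier method (0.04) also called it, and it was lost without L3 library 1 (log2 fold change -1.37, adjusted p = 0.176). The counts differed by 0.232% from those of capt, an actin-monomer-binding protein gene that overlaps Vps29 on the opposite strand, so the fall could belong to either gene.

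The other retromer core genes were also lower in the adult mean without passing. Vps35, the scaffold subunit, was at 41.3 and 58.8 CPM in L3 and at 23.4, 25.5, 10.96 and 15.5 in adult, so the stages did not overlap (log2 fold change -1.43, SE 0.55, adjusted p = 0.0656). Vps26, the arrestin-like subunit, was at 45.0 and 75.4 CPM in L3, against 28.5 to 48.1 in adult, with overlap (log2 fold change -0.57, adjusted p = 0.411). All 3 retromer genes shared their counts with a neighbour: Vps35 had the same counts as Swim, and Vps26 differed from CG14817 by 0.348%. Their summed level was 211 and 227 CPM in L3, against 54.8 to 112 in adult.

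In the GARP complex, which tethers vesicles returning from endosomes to the Golgi, Vps52 had the same counts as cl. It was at 129 and 131 CPM in L3 and at 90.2, 75.2, 70.1 and 90.1 in adult, with no overlap (log2 fold change -0.70, 95% interval -1.46 to 0.06, adjusted p = 0.184). Vps53 was at 17.4 and 8.32 CPM in L3, against 13.2 to 24.2 in adult, with the counts of Psf2, so the 2 did not share a direction. Vps51 had 17 and 22 counts in L3 and 0, 4, 0 and 5 in adult and was too low to be tested.

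In the Atg1 kinase complex, 0 of 3 tested genes passed with edgeR, DESeq2 or limma-voom, and 1, Atg101, had an unadjusted edgeR p under 0.05. Atg101, which stabilises Atg13 in the complex, was at 151 and 165 CPM in L3 and at 443, 215, 265 and 328 in adult. All adult libraries were above both L3 libraries, by 1.97 times on the fitted scale (log2 fold change 0.98, SE 0.36, 95% interval 0.24 to 1.72), and the adjusted p was 0.0528. It passed with the stricter filter of 10 CPM in 2 libraries (adjusted p = 0.0461), and when adult library 2 or adult library 3 was left out (0.04 and 0.023). Atg1, the kinase itself, had counts that differed by 0.917% from those of CG10969 and by 1.87% from those of CG17666. The Atg1 row varied several-fold within each stage: 16.3 and 56.2 CPM in L3 and 83.5, 8.05, 17.5 and 41.9 in adult. Its log2 fold change was 0.26 (95% interval -1.04 to 1.56, adjusted p = 0.812), and it was -0.30 without L3 library 1 and -0.45 without adult library 1. Atg13, the regulatory subunit, was at 7.57 and 22.4 CPM in L3, against 0 to 16.3 in adult. Atg17, the scaffold subunit, had 19 and 14 counts in L3 and 3, 1, 0 and 2 in adult. It was too low for the main test, and with no filter on low counts its adjusted p was 0.275.

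The genes of membrane supply and of the class III kinase went both ways in the mean, and 0 of 7 passed with edgeR, with 3 of them at an unadjusted p under 0.05. Atg18b, a phosphoinositide-binding propeller protein whose counts differed by 4.42% from those of clumsy, was at 11.7 and 18.2 CPM in L3 and at 51.8, 57.7, 21.9 and 44.3 in adult. The stages did not overlap (log2 fold change 1.55, SE 0.60, adjusted p = 0.0689), and it passed without adult library 3 (adjusted p = 0.0311). Its paralogue Atg18a was at 17.03 and 17.7 CPM in L3, against 15.9 to 30.3 in adult. Vps15, the regulatory subunit of the kinase, was at 0.757 and 5.2 CPM in L3 and at 34.2, 25.5, 13.2 and 0.776 in adult. Adult library 4 was as low as L3 library 1 (log2 fold change 2.67, SE 1.12, adjusted p = 0.0904), and without it the adjusted p was 0.0367.

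Atg6, the Beclin subunit of the same kinase complex, lay in the opposite direction. It was at 28.8 and 16.1 CPM in L3 and at 5.01, 10.7, 0 and 8.54 in adult, with no overlap (log2 fold change -1.98, SE 0.82, adjusted p = 0.0831). Atg14, the subunit that directs the kinase to autophagosomes, was at 11.4 and 31.2 CPM in L3, against 6.58 to 52.3 in adult, with the counts of yem. Atg9, the membrane scramblase, was at 22.3 and 18.2 CPM in L3, against 6.71 to 24.1 in adult. Atg2, the lipid transfer partner of Atg9, was at 18.9 and 6.76 CPM in L3, against 4.38 to 12.1 in adult (log2 fold change -1.002, adjusted p = 0.423), and 0.20 without L3 library 1.

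Of the conjugation genes, 0 of 8 tested passed with edgeR, DESeq2 or limma-voom, and 3 had an unadjusted edgeR p under 0.05. Atg8a was at 82.5 and 215 CPM in L3 and at 228, 272, 232 and 304 in adult. The adult libraries lay above both L3 libraries, L3 library 2 being close to them (log2 fold change 0.84, SE 0.37, adjusted p = 0.103). Without L3 library 2 the log2 fold change was 1.47 (adjusted p = 0.0372), and without L3 library 1 it was 0.42 (adjusted p = 0.636). Atg8b, the second fly Atg8 gene, had no count in any library. Atg12, the other ubiquitin-like modifier, was at 91.6 and 56.7 CPM in L3 and at 146, 96.6, 207 and 134 in adult, again without overlap (log2 fold change 0.90, SE 0.41, adjusted p = 0.123). Its counts differed by 2.46% from those of the antisense RNAs CR11538 and CR45892.

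The enzymes that attach these modifiers were less even. Atg7, the E1-like enzyme that activates both Atg8 and Atg12, was at 71.2 and 65.0 CPM in L3 and at 30.1, 0, 73.4 and 15.5 in adult. Adult library 3 matched L3 while adult library 2 had no count (log2 fold change -1.23, SE 0.59, adjusted p = 0.139), and without adult library 3 the adjusted p was 0.0226. Atg3, the E2-like enzyme for Atg8, was at 44.3 and 49.4 CPM in L3, against 28.2 to 92.7 in adult, and Atg10, the E2-like enzyme for Atg12, at 5.68 and 9.88 CPM in L3, against 0.835 to 18.8 in adult. The Atg8 proteases Atg4a and Atg4b were at 10.2 and 19.2 CPM and at 3.41 and 9.88 CPM in L3, and at 0 to 34.0 and 7.51 to 24.2 in adult. Atg16, which carries the Atg12 conjugate to the membrane, was at 6.06 and 8.32 CPM in L3, against 0 to 12.5 in adult. Atg5, the target of Atg12, had 10 and 12 counts in L3 and 0 in all 4 adult libraries. The L3 mean was 6.92-fold above the adult floor of 0.724 CPM over the 4 libraries, with no allowance for error in the L3 counts. With no filter on low counts the adjusted p of Atg5 was 0.19 (edgeR).

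ref(2)P, the fly p62 homologue that links ubiquitinated cargo to Atg8, was at 125 and 161 CPM in L3 and at 176, 225, 255 and 200 in adult. Each adult library was above both L3 libraries by a small margin (log2 fold change 0.56, SE 0.34, 95% interval -0.15 to 1.27, adjusted p = 0.262). The RNA level says nothing of ref(2)P protein, which autophagy itself degrades. The summed level of the 10 conjugation genes was 319 and 439 CPM in L3, against 464 to 635 in adult.

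**Figure D4:**
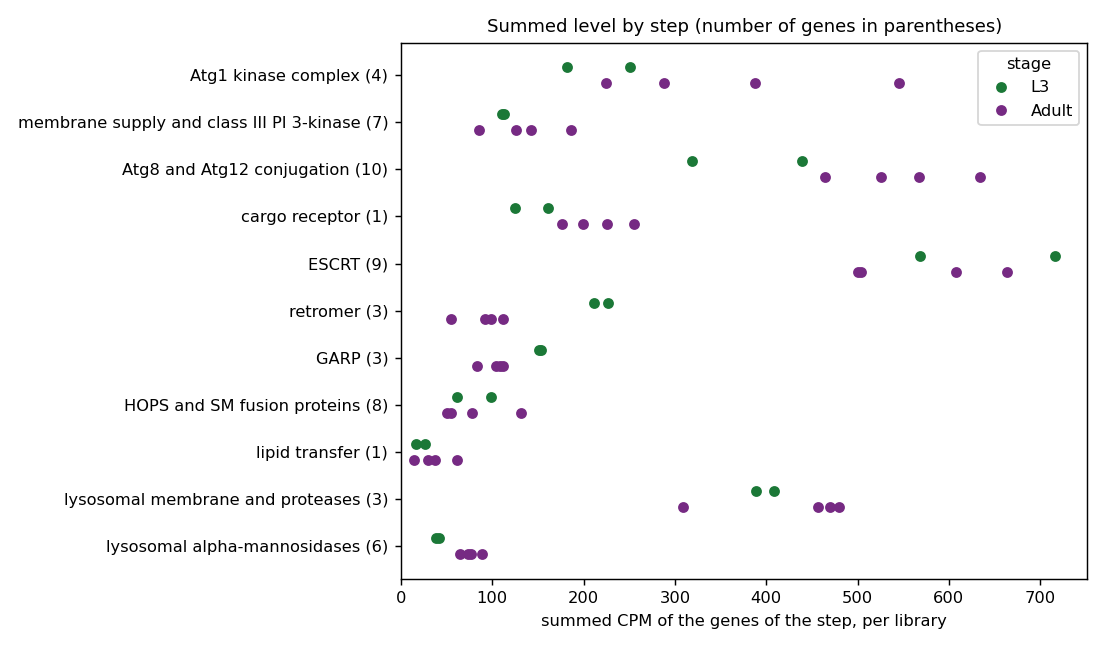
Summed CPM of the genes of each step (horizontal axis) in the 2 L3 libraries (green) and 4 adult libraries (purple), with the number of genes per step. The retromer sum is 211 and 227 CPM in L3, against 54.8 to 112 in adult. The conjugation sum is 319 and 439 CPM against 464 to 635. The GARP, mannosidase and cargo receptor sums do not overlap between the stages either. Sums of the other steps, HOPS and ESCRT among them, overlap. Among all tested genes taken singly, 37.7% did not overlap. All 3 retromer genes and 7 of 8 tested conjugation genes share counts with another row. The sums were not tested.

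The ESCRT machinery, which buds cargo into multivesicular endosomes, had no call among 9 tested genes with edgeR, DESeq2 or limma-voom, and 0 at an unadjusted edgeR p under 0.05. Vps28, of ESCRT-I, was at 262 and 376 CPM in L3 and at 366, 278, 250 and 234 in adult. The stages overlapped and the interval was narrow (log2 fold change -0.18, 95% interval -0.85 to 0.49, adjusted p = 0.741), with the counts of lig. Vps37B, its ESCRT-I partner, was at 34.4 and 58.2 CPM in L3, against 44.3 to 66.9 in adult. The ESCRT-II genes Vps25 and Vps36 were at 38.6 and 18.7 CPM and at 1.51 and 35.4 CPM in L3, and at 10.1 to 56.4 and 2.19 to 50.9 in adult, so Vps36 varied over 10-fold within each stage. It had the same counts as CG10710, so this variation cannot be assigned to Vps36 alone.

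Vps2, of the filament-forming ESCRT-III genes, was at 122 and 106 CPM in L3 and at 62.6, 81.9, 70.1 and 69.1 in adult, with no overlap (log2 fold change -0.75, 95% interval -1.54 to 0.05, adjusted p = 0.175). Vps20 was at 13.6 and 20.3 CPM in L3, against 0 to 52.6 in adult, Vps24 at 19.3 and 30.7 against 15.9 to 45.6, and Vps60 at 35.2 and 41.1 against 26.8 to 50.4. Vps4, the ATPase that disassembles the filaments, was at 42.0 and 30.7 CPM in L3 and at 10.02, 5.37, 17.5 and 31.8 in adult. Adult library 4 reached the lower L3 value (log2 fold change -1.13, 95% interval -2.42 to 0.16, adjusted p = 0.207).

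HOPS genes and the related fusion proteins were low in both stages. car, the fly Vps33A, was at 10.2 and 43.7 CPM in L3 and at 13.4, 4.03, 29.6 and 20.2 in adult (log2 fold change -0.55, adjusted p = 0.637). The adult range lay mostly between the 2 L3 values, and without L3 library 2 the log2 fold change was 0.58. lt, the fly Vps41, had 2 counts in all, in adult libraries 2 and 4. Vps11 was at 0.379 and 7.80 CPM in L3 and at 0, 21.5, 0 and 20.2 in adult (log2 fold change 1.46, 95% interval -1.11 to 4.03). Vps16A had 14 and 9 counts in L3 and 0 in all 4 adult libraries. The L3 mean was 6.89-fold above the adult floor, with no allowance for error in the L3 counts. The adjusted p of Vps16A was 0.181 (edgeR) when no filter was applied. Vps39 was at 12.5 and 5.2 CPM in L3 and had counts in 1 adult library, at 12.5 CPM.

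Vps33B and its partner Vps16B, of a second tethering complex, were at 7.19 and 3.64 CPM and at 17.8 and 29.6 CPM in L3, and at 5.44 to 9.39 and 10.96 to 57.6 in adult. Vps45, an SM protein of endosome fusion, was at 7.95 and 3.64 CPM in L3 and at 38.4, 0, 1.10 and 0 in adult, and was not tested. Vps13, a bridge-like lipid transfer protein with the same counts as blow, was at 16.3 and 26 CPM in L3, against 14.2 to 61.8 in adult (log2 fold change 0.80, adjusted p = 0.381). In all, 15 members with counts elsewhere were at 0 in at least 1 adult library.

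Other genes of the same pathways were taken from 7 lists. Of 103 tested, 6 rose and 8 fell with edgeR, or 13.6%, against 22.7% of all tested genes, and their median log2 fold change was 0.07. The difference between these shares was not tested. Mon1 fell and Fuca rose under all 15 alternative fits, whereas the other 12 calls were lost without L3 library 1, and all of these but Lst8 also in 2 or more further single-library omissions. Without L3 library 1 all 12 kept their direction, and the log2 fold change of 11 stayed within 1.5 times, while that of Vamp7 was -0.80. Over all genes 402 were then called higher and 507 lower. Of the 14 called genes, 10 shared their counts with a neighbour.

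Mon1, a subunit of the exchange factor that activates Rab7 on late endosomes and autophagosomes, was at 71.5 and 79.0 CPM in L3 and at 8.35, 1.34, 2.19 and 0.776 in adult. All adult libraries were far below L3 (log2 fold change -4.48, SE 0.70, adjusted p = 3.39e-05, edgeR), and the closest neighbouring row differed from it by 35.8% of summed counts. Fuca, the lysosomal alpha-L-fucosidase, was at 65.9 and 76.4 CPM in L3 and at 319, 352, 160 and 239 in adult. All adult libraries were above L3 (log2 fold change 1.88, SE 0.40, adjusted p = 0.00161), but Mob2 had nearly the same counts, differing by 0.0352%.

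In the list of endosomal phosphoinositides and autophagosome fusion, 4 of 17 fell and 1 rose with edgeR, or 29.4%, against 13% of all tested genes lower and 9.67% higher, a difference not tested. limma-voom called 4 of the 17, DESeq2 2 and edgeR's earlier method 1. Besides Mon1, the myotubularin phosphatase gene mtm fell from 36.4 ± 12.4 to 5.797 ± 7.82 CPM (adjusted p = 0.0292), with the counts of CG9109. The SNARE gene Vamp7 and the endosome maturation gene ema fell at adjusted p = 0.0426 and 0.0465, each sharing counts. With DESeq2 mtm, Vamp7 and ema did not pass (adjusted p = 0.191, 0.179 and 0.273). The phosphoinositide phosphatase gene FIG4, listed as CG17840 and with the counts of ine, rose from 29.5 ± 13.4 to 82.8 ± 15.8 CPM (adjusted p = 0.0232).

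In the list of nutrient and TOR control, 2 of 23 rose and 2 fell with edgeR, or 17.4%, near the 22.7% of all tested genes. limma-voom called 3, DESeq2 1 and edgeR's earlier method 0, with 3 of the 23 at an unadjusted p under 0.05 in the last. AMPKalpha, the energy-sensing kinase, rose from 33.9 ± 7.23 to 89.6 ± 12.9 CPM (adjusted p = 0.0275), with the counts of CG3719, and REPTOR, a transcription factor restrained by TOR complex 1, rose from 47.0 ± 20.4 to 110 ± 28.2 CPM (adjusted p = 0.0393). Lst8, a TOR complex subunit with nearly the counts of Aats-lys, fell from 63.8 ± 6.78 to 12.4 ± 10.7 CPM (adjusted p = 0.00717), and Nprl2, of the GATOR1 complex that restrains TOR, fell from 19.0 ± 4.13 to 2.80 ± 2.80 CPM (adjusted p = 0.0355). With DESeq2 REPTOR, Lst8 and Nprl2 did not pass (adjusted p = 0.0589, 0.074 and 0.207).

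Among 20 other lysosomal hydrolases and cofactors, 2 rose and 0 fell with edgeR, DESeq2 or limma-voom, while 4 had an unadjusted edgeR p under 0.05 with a lower adult level. Besides Fuca, the beta-hexosaminidase gene Hexo2 rose from 62.6 ± 6.20 to 150 ± 44.4 CPM (adjusted p = 0.0323), with the same counts as CG2004. Among 10 genes of the lysosomal membrane and of sorting, 1 rose: Lerp, a receptor for lysosomal enzymes, at 7.57 and 9.88 CPM in L3, against 20.8 to 54.4 in adult (adjusted p = 0.0414, edgeR), with the same counts as Tl. DESeq2 and limma-voom called 0 of the 10, with 2 and 1 at an unadjusted p under 0.05, and Lerp had adjusted p = 0.0602 and 0.116. The ESCRT gene Stam and the BLOC-3 gene HPS1 each fell, 1 of 11 and 1 of 13 in their lists (adjusted p = 0.043 and 0.0483, edgeR). DESeq2 called neither (adjusted p = 0.122 and 0.26), and limma-voom called Stam alone. Each of these lists had a called share below the 22.7% of all tested genes. Of 9 genes of selective autophagy and mitophagy, 0 passed with edgeR, DESeq2 or limma-voom, and 2 had an unadjusted edgeR p under 0.05, both higher in adult.

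**Figure D5:**
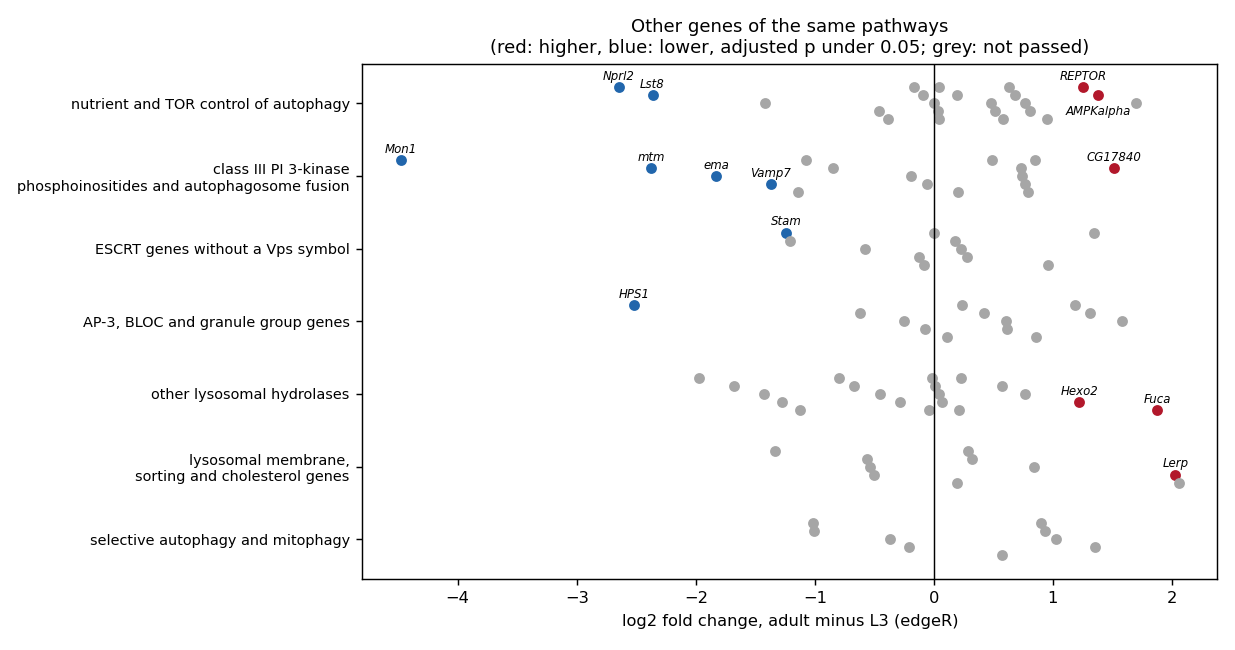
The log2 fold change (horizontal axis, adult minus L3, edgeR) of 103 tested genes in 7 lists of the same pathways, with the 6 that rose in red and the 8 that fell in blue. Mon1 lies at -4.48, and most genes of each list lie between -1 and 1.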

How the data were processed

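RNA of sorted astrocytes was measured with a 3′ end MARS-seq derivative, per the labels' protocols. The deposited table holds raw counts per gene symbol for 6 libraries and 0 other sample columns. bcl2fastq, HISAT 0.1.5 and HOMER are named in the submitters' processing notes, while their roles are not stated there. The genome build, annotation, strand use and any collapse of molecular identifiers were not given in the sources used here. No coordinates or sequences are therefore printed, and the floors cover counting error only, while the intervals of fold changes also take in the spread between libraries. Of the 55 symbols, 54 were current and 1 a synonym in RefSeq (Release 6 plus ISO1 MT). CPM scales the count to the library total and does not divide by length.

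The main test was edgeR 4.0.16 (R 4.3.3), quasi-likelihood with the method new in that version, TMM scaling and filterByExpr by stage. Benjamini-Hochberg adjustment was made over 9082 genes at 0.05. The test was also run on simulated data, whose outcome is not given here. Those data had the same spread for all genes and no shared rows, unlike the real table. The SE is the absolute log2 fold change divided by the square root of the F statistic. The test moderates the spread of each gene with that of other genes. Its degrees of freedom, 21.0 for Vps29, are therefore more than 6 libraries alone would give. Alternatives were RLE scaling, DESeq2 1.42.0, limma-voom (limma 3.58.1), edgeR's earlier method, no filter, a stricter filter (10 CPM in 2 libraries), each library left out, a replicate block, 1 row per group of shared counts, and a threshold of 0.01. With 1 L3 library left out, the spread comes from the adult libraries, moderated in the same way, and the lone L3 library is taken to have that spread.

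Rows within 10 rows, with at least 30 counts each, were said to share counts when they differed by under 5% of summed counts, and rows farther apart (at least 200.0 counts) when in addition their chi-square was under 0.3. The search of rows farther apart covered the members alone. Of 123 listed related symbols, 8 had no match, and 1 was Vps15, a member. Genes named with values were all members, and of each related list the 3 smallest adjusted p among calls. REPTOR, Vamp7 and ema are outside that rule and were chosen after their values were seen, as were the members named for libraries that do not overlap. The members, lists and tests were chosen with earlier results of these data known.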

Additional observations from a re-analysis of the deposited data

Results flagged for a closer look

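In 3 members the gap between 1 adult library and the nearest other took up most of the adult range. Vps45 was at 38.4 CPM in adult library 1, against 0 to 1.10 in the others. Vps39 was at 12.5 CPM in adult library 1 and had no count in the others. Vps33B was at 5.44 CPM in adult library 4, below the others at 8.77 to 9.39, but these are 7 counts against 11, 7 and 8, so the gap is small beside counting error. These were found among 46 members with a level of at least 5 CPM in some adult library, a minimum set after the data were seen, and chance flags about 1 in 20.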

How the results depend on the processing

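Of the members, 2 rose and 1 fell. The number that rose was 1 with DESeq2, limma-voom, no filter, or the 4 libraries numbered 1 and 2 without a block (Vps15, which did not pass in the main test), and 0 with edgeR's earlier method (5 at an unadjusted p under 0.05) or a threshold of 0.01. With a single library left out it was 0 to 4, and the number that fell 0 to 2. The earlier method left 1 member, Vps29, with 11.9% of all genes called. Of related genes, 6 rose and 8 fell; those that rose were 1 with the earlier method or at 0.01, 2 with no filter and 1 to 9 with a library left out. Those that fell were 1 with DESeq2 or the earlier method, 5 with limma-voom, 3 with no filter or 1 row per group, 2 at 0.01 or with the 4 libraries without a block, and 1 to 6 with a library left out. Of all tested genes, 878 were higher and 1181 lower, against 521 and 558 with the earlier method, 509 and 637 at 0.01, 538 and 706 with 1 row per group (6030 rows tested), 681 lower with DESeq2, and 402 to 1020 and 507 to 1176 with a library left out. The other counts stayed within 1.5 times, and the stricter filter added Atg101. RLE scaling kept all calls of members and related genes, and 2040 of the 2059 of all genes.

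Replicate numbers share no stated source, and same-numbered libraries did not deviate together (r = 0.00815). With the replicate block on those 4 libraries, 0 members rose and 0 fell (7 at an unadjusted p under 0.05), 1 related gene rose and 1 fell, and 319 and 207 of all genes did. Without the block the same libraries gave 782 and 867. Directions that reversed belonged to members that did not pass: the log2 fold change of Vps28 was 0.0195 with the block and 0.0261 in the same libraries without it. With a library left out, it ran from -0.12 (adult library 1 out) to 0.73 for Vps16B, from -0.68 to 0.21 (L3 library 1 out) for cathD, from -1.19 to 0.58 (L3 library 2 out) for car, from -0.45 (adult library 1 out) to 1.16 for Atg1, and from -1.60 to 0.20 (L3 library 1 out) for Atg2. Atg1 was also at -0.30 without L3 library 1. The causes were not tested. limma-voom moved the median of all genes by -0.28. Adult depth limits low members, where 30 counts carry a counting error of 18.3%.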
